A study of Mus musculus with 109 samples.

Results

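The endothelin system in the mouse retina was followed through 6 genes, the ligand genes Edn1, Edn2 and Edn3, the receptor genes Ednra and Ednrb, and Ece1, which encodes the enzyme that releases the mature peptides. The genes were taken by symbol and Ensembl identifier from a table of 37315 genes, and each of the 6 passed the filter on low counts in every comparison. RNA came from whole retinas of 64 mice, collected after an intravitreal injection of PBS, TNF, IL1A (IL1 in the sample labels) or both cytokines together (IL1A+TNF). In WT C57BL/6J mice of batch 1, 31 PBS, 8 TNF, 9 IL1A and 10 IL1A+TNF retinas were collected on day 2, 7 PBS and 6 TNF retinas on day 14, and 6 PBS and 9 TNF retinas on day 35. Batch 2, all from day 2, held 5 PBS and 6 IL1A+TNF retinas of WT mice and 6 PBS and 6 IL1A+TNF retinas of Sarm1-/- mice, a germline deficient strain that lacks SARM1 in every cell. The mice were 2 to 4 months of age, both sexes were used, and most PBS retinas were the fellow eyes of injected ones, so 45 mice gave both eyes. A PBS eye is therefore an injected eye of a mouse that often received a cytokine in the other eye, and no uninjected retina was analysed here.

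Endothelins are small peptides with a pair of disulfide bridges that are cut from larger precursors, first by a furin-type protease and then by endothelin converting enzyme. They act on 2 G protein-coupled receptors. The receptor encoded by Ednra binds endothelin-1 and endothelin-2 more tightly than endothelin-3 and drives contraction of vascular smooth muscle and pericytes, while the receptor encoded by Ednrb binds the peptides about equally and is found on endothelium, astrocytes, Müller glia and melanocytes. In the retina, Edn2 is known as a gene that stressed photoreceptors turn on, and signaling through Ednrb is known from reactive glia and from glaucoma models, in which endothelins have been linked to the loss of retinal ganglion cells (RGCs).

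The stretches that encode the mature peptides show how close the ligands are, and they are printed because the ligand genes differ in response. Each lies within exon 2 of its gene (GRCm38, + strand, from the GENCODE M21 transcripts), at chr13:42303649-42303711 for Edn1, chr4:120161951-120162013 for Edn2 and chr2:174761749-174761811 for Edn3. Capitals mark the codons whose residue differs from that of endothelin-1.
Edn1: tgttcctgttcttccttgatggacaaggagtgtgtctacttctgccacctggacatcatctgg
Edn2: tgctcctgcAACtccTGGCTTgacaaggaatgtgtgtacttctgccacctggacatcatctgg
Edn3: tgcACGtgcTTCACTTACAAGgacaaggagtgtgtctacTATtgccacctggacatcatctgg
Endothelin-2 had 18 of the 21 residues of endothelin-1, and endothelin-3 had 15 of 21. From the eighth codon on, endothelin-2 did not differ from endothelin-1, and endothelin-3 differed at a single residue. The genes themselves lie apart in the genome, with Edn1 at chr13:42301476-42307990, Edn2 at chr4:120161206-120167360, Edn3 at chr2:174760619-174784042, Ednra at chr8:77663031-77724464 (- strand), Ednrb at chr14:103814625-103844402 (- strand) and Ece1 at chr4:137862237-137965229. Transcripts on the opposite strand overlap Edn1 (Gm47118), Ednra (4933431K23Rik) and Ece1 (Gm13012), and since the strand setting of the counting is not given in the sources used here, reads of those overlaps may be shared.

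The read pairs counted on genes per retina ranged from 30014757 to 45779899 in batch 1 and from 42875980 to 79064488 in batch 2. Levels are CPM values (counts scaled to the library total) with TMM factors. Changes are log2 fold changes ± SE from limma on voom weights with sex as a term and mouse as a random block, and a gene is called where its Benjamini-Hochberg adjusted p (FDR), taken over every gene tested, lay under 0.05. In Sarm1-/- retinas Sarm1 was at 43.4 ± 5.80 CPM (SD, n = 6) after PBS and 37.3 ± 7.77 CPM (n = 6) after IL1A+TNF, below the range of every WT group, whose means lay between 88.0 and 123 CPM. Markers of tissues next to the retina varied widely between retinas. The sum of 8 genes of retinal pigment epithelium (RPE) and melanocytes ran from 9.60 to 1176 CPM, the sum of 5 lens genes reached 4232 CPM, and 14 retinas held over 100 CPM of lens genes. In 3 Sarm1-/- IL1A+TNF retinas the erythrocyte genes summed to 94.95, 77.3 and 47.8 CPM, against 9.90 to 38.0 CPM in all other retinas, and these 3 were the group's 3 females. The members' Sarm1-/- values are given with and without these 3 retinas. In whole retinas, fewer cells of a type and less RNA per cell cannot be told apart.

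Per kilobase of exon, Edn2 was the highest member in PBS retinas on day 2, at 36.8 ± 14.6 CPM per kb (SD, n = 31), with a range of 11.2 to 70.0. Ece1 followed at 11.2 ± 0.779 CPM per kb (9.79 to 12.6). Ednrb was at 3.13 ± 1.38 CPM per kb (1.83 to 8.60), Edn3 at 1.30 ± 1.69 (0.301 to 9.09), Edn1 at 1.11 ± 0.264 (0.563 to 1.95) and Ednra at 0.582 ± 0.177 (0.314 to 1.08). Neighbours in this order overlapped in their ranges, except Ece1 and Ednrb. Ece1 varied least among PBS retinas and Edn3 most, with an SD above its own mean. On day 35, Edn2 in PBS retinas was at 2.57 CPM per kb and no longer the highest member.

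To determine how the cytokines shifted the endothelin genes on day 2, each treated group of batch 1 was compared with the same 31 PBS retinas, so these comparisons share their controls. After IL1A+TNF, 5 of 6 members passed the test, 4 higher (Edn1, Edn2, Ednrb and Ece1) and 1 lower (Edn3), where 50.4% of the 19548 genes tested were called. After IL1A alone, 4 of 6 were called, all higher (Edn1, Edn2, Ednra and Ece1), where 21.4% of all genes were called. After TNF alone, 0 of 6 were called with limma, edgeR or DESeq2, where limma called 0.655% of all genes. With limma 0 of 6 had an unadjusted p under 0.05, where 1497 of all genes had one. The median log2 fold change of the 6 members was 0.27 after IL1A+TNF, 0.46 after IL1A and -0.04 after TNF, beside -0.02, -0.01 and -0.002 over all genes tested.

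**Figure D1:**
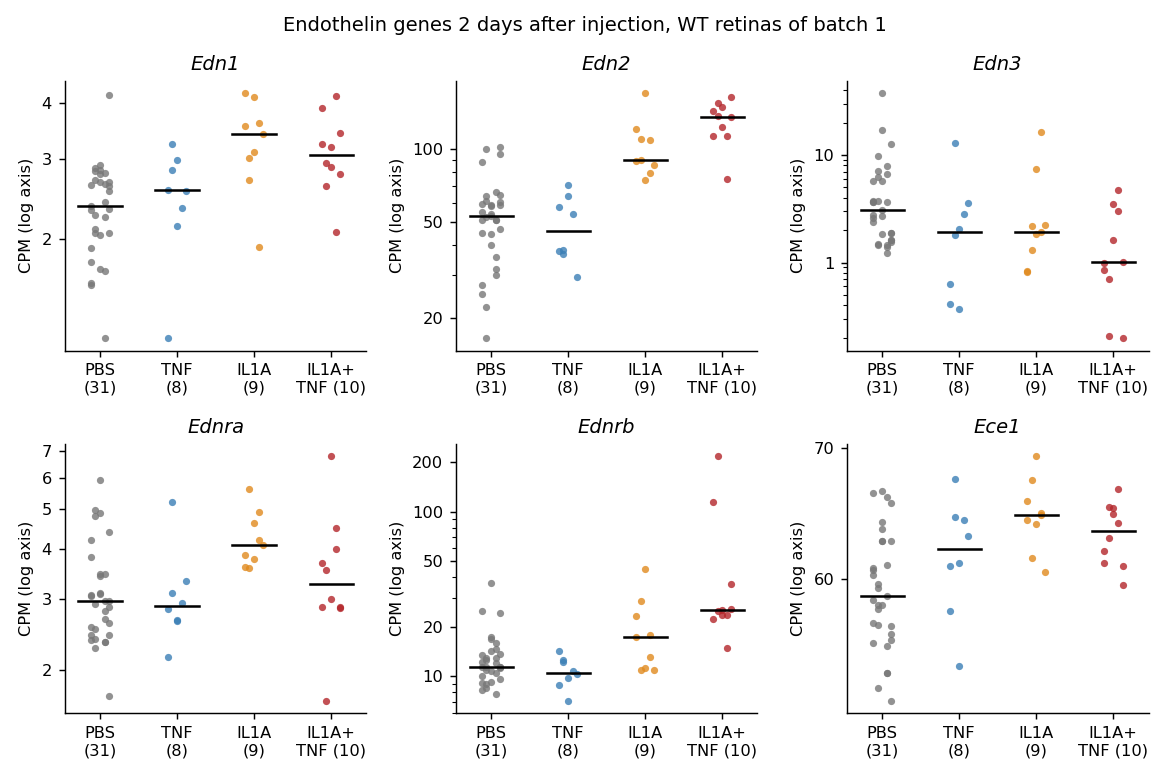
Level of each member in every WT retina of batch 1 on day 2, in CPM on a log axis, by treatment, with the number of retinas in brackets and the median as a black line. Edn2 stands at 75.0 to 164 CPM after IL1A+TNF and at 16.4 to 102 CPM after PBS, Ednrb has a pair of IL1A+TNF retinas at 114 and 218 CPM, and Edn3 reaches from 0.197 to 37.4 CPM over the 4 groups.

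Edn2, the ligand gene tied to photoreceptor stress, had the smallest FDR of the members in both IL1A groups. In PBS retinas it ran from 16.4 over a median of 52.8 to 102 CPM, in TNF retinas from 29.5 over 45.9 to 70.6 CPM, in IL1A retinas from 74.7 over 90.1 to 170 CPM, and in IL1A+TNF retinas from 75.0 over 136 to 164 CPM. The groups overlapped, but 9 of 10 IL1A+TNF retinas and 4 of 9 IL1A retinas lay above the highest PBS retina. Edn2 was 2.56-fold higher after IL1A+TNF (log2 fold change 1.36 ± 0.179, FDR 3.93e-09 with limma) and 2.02-fold higher after IL1A (1.01 ± 0.186, FDR 2.37e-05), and each treated retina of both groups lay above the PBS mean. In the 8 mice with an IL1A+TNF eye and a PBS eye, the IL1A+TNF eye was higher in 8, by a median of 1.38 on the log2 scale. After TNF the difference was -0.07 ± 0.203, with a 95% interval of -0.48 to 0.34. With the mouse as a fixed factor it was 0.35 ± 0.153 (FDR 0.624), and the TNF eye was higher in 5 of 8 mice, by a median of 0.45.

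Edn1, known as the ligand of the vascular endothelium, moved by less. Its levels ran from 1.20 over a median of 2.37 to 4.18 CPM after PBS, from 1.20 over 2.56 to 3.25 CPM after TNF, from 1.92 over 3.41 to 4.20 CPM after IL1A and from 2.07 over 3.07 to 4.16 CPM after IL1A+TNF. These ranges overlapped almost fully, and the change showed as a shift of the whole group, with 8 of 9 IL1A retinas and 9 of 10 IL1A+TNF retinas above the PBS mean. Edn1 was higher after IL1A (0.47 ± 0.122, FDR 0.00274) and after IL1A+TNF (0.40 ± 0.117, FDR 0.00299). The IL1A eye was the higher one in 7 of 7 mice with both eyes, and the IL1A+TNF eye in 5 of 8. With the mouse as a fixed factor instead of a random block, which drops mice with a single eye, both calls were lost. The differences were then 0.32 ± 0.104 after IL1A (FDR 0.107) and 0.37 ± 0.192 after IL1A+TNF (FDR 0.156). Of 12 endothelial markers, 10 were called higher and 1 lower after IL1A (list median 0.43, 21.4% of all genes called). After IL1A+TNF, 9 were higher and 1 lower (list median 0.50, 50.4%). With group means removed, their sum and Edn1 had an r of 0.28 in batch 1 and -0.49 in batch 2. Their part in the Edn1 value was not tested.

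Edn3, the ligand that is known for the development of melanocytes and enteric neurons through Ednrb, was the member that went down. It ran from 1.24 over a median of 3.10 to 37.4 CPM after PBS, from 0.374 over 1.93 to 12.8 CPM after TNF, from 0.816 over 1.92 to 16.2 CPM after IL1A and from 0.197 over 1.00 to 4.69 CPM after IL1A+TNF. The groups overlapped, and 6 of 10 IL1A+TNF, 3 of 8 TNF and 2 of 9 IL1A retinas lay below the lowest PBS retina. Edn3 fell after IL1A+TNF (-1.58 ± 0.572, FDR 0.0173), and the IL1A+TNF eye was higher in only 1 of 8 mice with both eyes. The differences after TNF (-0.98 ± 0.580, FDR 0.746) and IL1A (-0.48 ± 0.491, FDR 0.556) did not pass the test.

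The pigment-cell markers moved with Edn3. Their sum ran from 31.2 over a median of 292 to 1086 CPM after PBS and from 14.2 over 116 to 526 CPM after IL1A+TNF. Of the 8 markers, 6 were called lower after IL1A+TNF (list median -1.51), 1 after IL1A and 0 after TNF (list median -1.58), and none of the 8 was at 0 throughout a group. Over the 58 retinas of batch 1 on day 2, with treatment means removed, the log2 levels of Edn3 and of these markers had a Pearson r of 0.82, and over the 23 retinas of batch 2 an r of 0.85. The summed markers of mural cells (pericytes and smooth muscle) followed Edn3 as closely, with an r of 0.85 and 0.87. Of these 9 mural markers, 3 were called higher and 0 lower after IL1A+TNF, where 50.4% of all genes were called. With the pigment-cell marker score as a covariate, an alternative chosen after seeing the data, the IL1A+TNF difference of Edn3 was -0.14 ± 0.394 (FDR 0.792). Without the retinas over 100 CPM of lens genes it was -1.34 ± 0.613 (FDR 0.0725). The part of the pigment cells in the Edn3 result was otherwise not tested, and that of the mural cells was not tested.

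**Figure D2:**
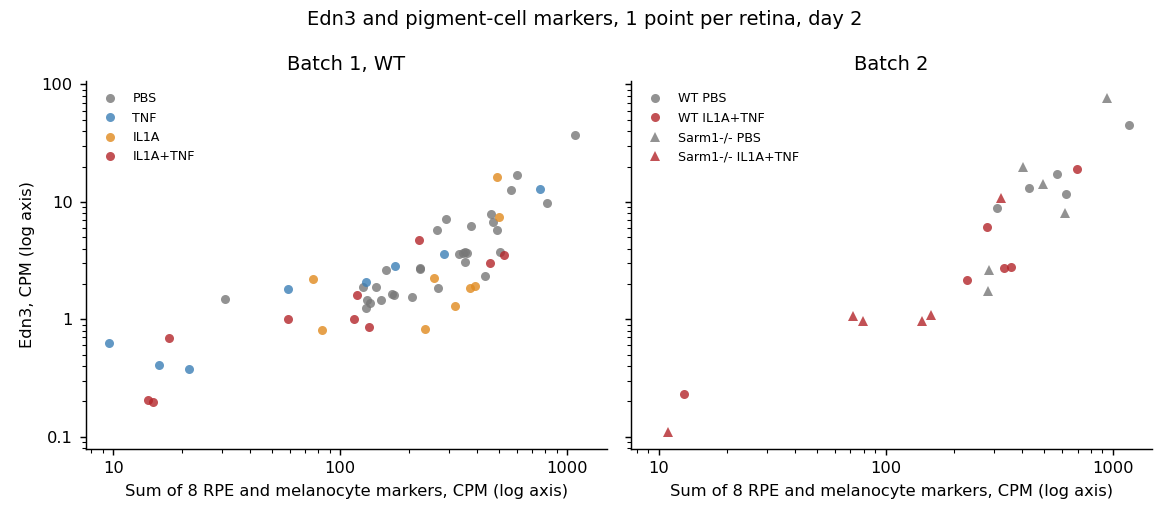
Edn3 in CPM against the summed CPM of 8 RPE and melanocyte markers, both on log axes, 1 point per retina on day 2, with WT retinas of batch 1 on the left and WT and Sarm1-/- retinas of batch 2 on the right. Retinas with the highest marker sums (1086 and 1176 CPM) hold 37.4 and 45.2 CPM of Edn3, and retinas with sums near 10 CPM hold less than 1 CPM.

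Ednrb, the receptor of glia, endothelium and melanocytes, was the receptor gene that rose after IL1A+TNF. It ran from 7.83 over a median of 11.5 to 36.7 CPM after PBS, from 7.05 over 10.5 to 14.2 CPM after TNF and from 10.9 over 17.4 to 44.8 CPM after IL1A. After IL1A+TNF the 10 retinas held 14.9, 22.1, 23.4, 23.6, 24.996, 25.4, 25.5, 36.2, 114 and 218 CPM. All 10 lay above the PBS mean, a pair lay above the highest PBS retina, and no IL1A+TNF retina lay within the range of the TNF retinas. Ednrb was 2.696-fold higher than after PBS (1.43 ± 0.223, FDR 2.18e-07), and it was higher in the IL1A+TNF eye of 8 of 8 mice, by a median of 0.93 on the log2 scale. Without the retinas over 100 CPM of lens genes, among them the one at 218 CPM, the difference was 1.17 ± 0.202 (FDR 3.85e-06). After IL1A alone the difference was 0.55 ± 0.258 (FDR 0.128), with a 95% interval of 0.03 to 1.07.

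Ednra, the receptor of contractile vascular cells, was called after IL1A and not after IL1A+TNF. It ran from 1.72 over a median of 2.96 to 5.91 CPM after PBS, from 2.15 over 2.88 to 5.22 CPM after TNF, from 3.58 over 4.08 to 5.61 CPM after IL1A and from 1.67 over 3.26 to 6.79 CPM after IL1A+TNF. All 9 IL1A retinas lay above the PBS mean although none exceeded the highest PBS retina, while the IL1A+TNF retinas spread past the PBS range at both ends. The difference was 0.45 ± 0.136 after IL1A (FDR 0.0119), with the IL1A eye higher in 7 of 7 mice, and 0.14 ± 0.136 after IL1A+TNF (FDR 0.400). Of 9 markers of mural cells (pericytes and smooth muscle), 3 were called higher after IL1A (list median 0.23), and their part in the Ednra value was not tested. The IL1A value lost its call without the lens-rich retinas (0.38 ± 0.148, FDR 0.0675), and with the pigment-cell score as a covariate the IL1A+TNF value was 0.50 ± 0.119 (FDR 3.75e-04).

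Ece1, the converting enzyme, changed by the smallest fold. It ran from 51.9 over a median of 58.8 to 66.5 CPM after PBS, from 54.1 over 62.1 to 67.5 CPM after TNF, from 60.5 over 64.7 to 69.4 CPM after IL1A and from 59.5 over 63.5 to 66.7 CPM after IL1A+TNF. The ranges overlapped, and all 9 IL1A and all 10 IL1A+TNF retinas lay above the PBS mean. Ece1 was 1.09-fold higher after IL1A (0.13 ± 0.0335, FDR 0.00301) and 1.07-fold higher after IL1A+TNF (0.092 ± 0.0321, FDR 0.0140), and with the mouse as a fixed factor, in fewer mice, the IL1A value was 0.17 ± 0.0607 and lost its call (FDR 0.140). After TNF the difference was 0.058 ± 0.0353 (FDR 0.757), and with the pigment-cell score as a covariate it was 0.12 ± 0.0347 (FDR 0.0333).

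To determine what the combination added to each cytokine, IL1A+TNF retinas were set against IL1A and against TNF retinas. Against IL1A, Ednrb was the 1 member called of 6, 1.84-fold higher (0.88 ± 0.291, FDR 0.0413), where 10.1% of all genes were called. Edn2 differed by 0.34 ± 0.227 (FDR 0.369, 95% interval -0.11 to 0.80) and Ednra by -0.31 ± 0.167 (FDR 0.254). The Ednrb call was lost without the lens-rich retinas (0.63 ± 0.270, FDR 0.197), with the pigment-cell score (0.88 ± 0.324, FDR 0.0643) and with no filter on low counts (0.88 ± 0.293, FDR 0.0624). In these last 2 fits the difference kept its size. Against TNF, Edn2 (1.43 ± 0.241, FDR 3.17e-06) and Ednrb (1.66 ± 0.346, FDR 9.71e-05) were called, 2 of 6 where 39% of all genes were called. Neither gene's groups overlapped, but the share of all genes without overlap was not counted. For the interaction of the cytokines, which asks whether the combined change departs from the sum of the separate ones on the log2 scale, limma called 0 of 6 members, where 3.6% of all genes were called. Ednrb came nearest (1.11 ± 0.431, unadjusted p 0.0124, FDR 0.140). It was the 1 member of 6 with an unadjusted p under 0.05, where 3431 of the 19548 genes tested had one. edgeR (1.61, FDR 0.0189) and DESeq2 (1.63 ± 0.419, FDR 0.00523), both without the mouse block, called it.

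**Figure D3:**
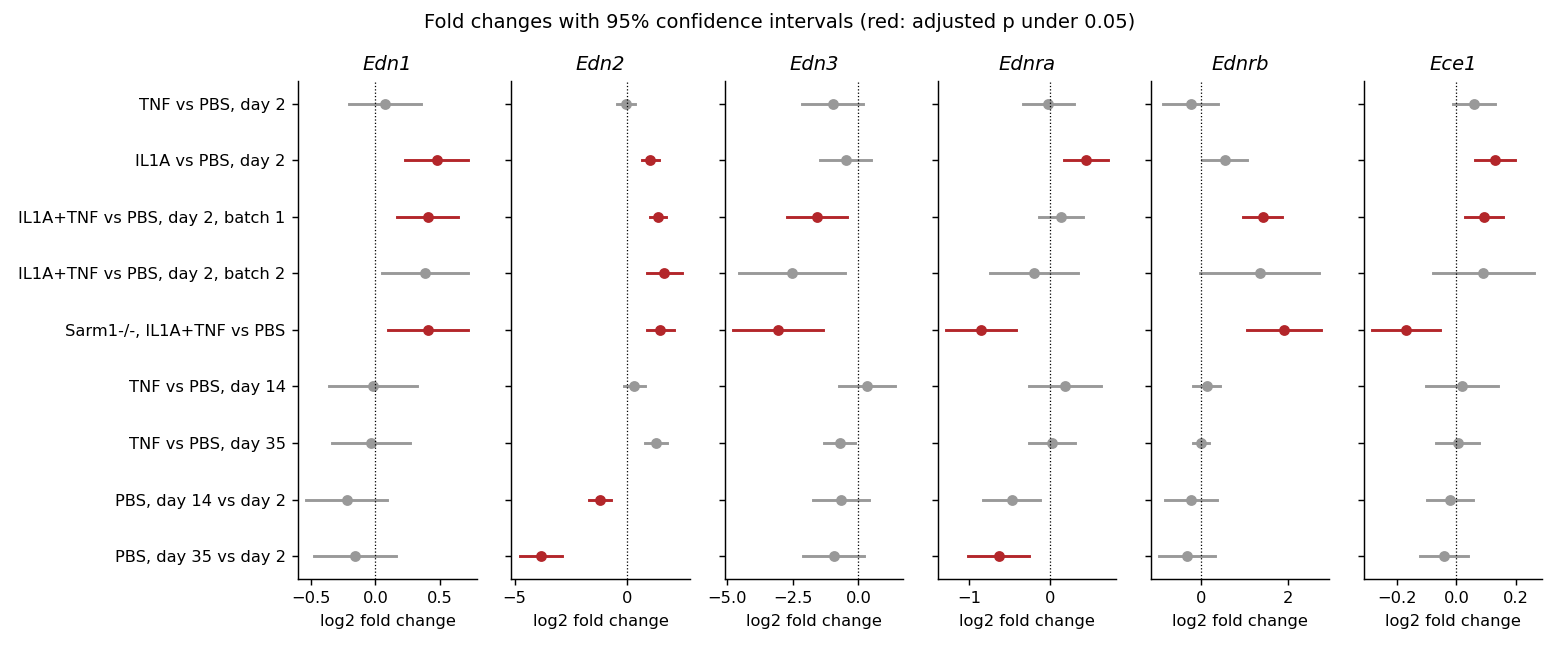
Log2 fold change of each member (points) with its 95% confidence interval (lines) in 9 comparisons, each panel with its own axis, red where the FDR lay under 0.05. Edn2 is red in the 4 comparisons with IL1A in the treated eye and in both comparisons of PBS retinas between days, and its TNF value on day 35 (1.27) is positive but grey.

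PBS retinas of the 3 days were set side by side to see how the members moved with time after an injection. Edn2 ran from 16.4 over a median of 52.8 to 102 CPM on day 2, from 13.1 over 16.6 to 46.6 CPM on day 14 and from 2.20 over 3.81 to 5.50 CPM on day 35. The day 35 retinas all lay below the lowest day 2 retina. Against day 2, Edn2 was at 0.429 of its level on day 14 (-1.22 ± 0.240, FDR 1.25e-04), 1 of 6 members called where 18% of all genes were called. On day 35 it was at 0.06998 of its day 2 level (-3.84 ± 0.476, FDR 1.05e-09). Ednra was the other member called then (-0.64 ± 0.192, FDR 0.00668), 2 of 6 where 32.9% of all genes were called. Ednra ran from 1.54 over a median of 1.92 to 2.73 CPM on day 35, with 2 of 6 retinas below the lowest day 2 retina and the rest within the day 2 range. Its day 14 difference was -0.47 ± 0.178 (FDR 0.0531), and with the pigment-cell score its day 35 difference was -0.30 ± 0.153 (FDR 0.131). On day 35, 7 of the 9 mural cell markers were also called lower (list median -0.56), and their part in the Ednra value was not tested. The pigment-cell sum itself had a median of 63.7 CPM on day 35 and 292 CPM on day 2. The remaining 4 members differed by between -0.94 and -0.04 on the log2 scale on day 35, with FDRs from 0.228 to 0.500. Of these, Edn3 (-0.94 ± 0.592, FDR 0.228) was called by DESeq2 (-1.48 ± 0.556, FDR 0.0257), and with the pigment-cell score its difference was 0.70 ± 0.408 (FDR 0.202). Day and mouse cannot be told apart here, since each mouse was collected on a single day. The other eye differs as well, since many day 2 PBS eyes came from mice given IL1A or IL1A+TNF, and no day 14 or day 35 mouse received IL1A. In day 2 PBS eyes with a treated fellow eye, Edn2 ran from 22.2 to 66.5 CPM in TNF mice. It ran from 16.4 to 102 CPM in IL1A mice and from 50.9 to 99.5 CPM in IL1A+TNF mice. The part of the other eye in these differences was not tested.

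After TNF the later days gave 0 of 6 members called with limma, edgeR or DESeq2, where 0% of all genes were called on either day, and 838 genes on day 14 and 871 on day 35 had an unadjusted p under 0.05 with limma. On day 14, 0 of 6 members had an unadjusted p under 0.05, and Edn2 ran from 18.2 over 26.1 to 34.9 CPM after TNF, within the PBS range (0.31 ± 0.223, FDR 0.888). On day 35, Edn2 ran from 5.10 over 8.55 to 15.3 CPM after TNF and from 2.20 over 3.81 to 5.50 CPM after PBS. All but 1 of the 9 TNF retinas lay above the highest PBS retina, and the TNF eye was higher in 5 of 6 mice with both eyes. The difference was 2.41-fold (1.27 ± 0.243, 95% interval 0.76 to 1.78, unadjusted p 3.98e-05) and failed the correction over 17821 genes (FDR 0.581). Edn3 on day 35 was the other member with an unadjusted p under 0.05 (-0.71 ± 0.289, p 0.0227, FDR 0.889). It was lower in the TNF eye of 6 of 6 mice, and the pigment-cell sum had a median of 33.8 CPM after TNF and 63.7 CPM after PBS. The remaining 4 members differed by at most 0.03 on the log2 scale in either direction, Ednrb by 0.002 ± 0.0861 and Ece1 by 0.004 ± 0.0351.

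Whether the TNF effect itself changed with time was tested as a difference of differences. Of 6 members 0 were called for day 14 against day 2 and 0 for day 35 against day 2, with limma, edgeR and DESeq2, where limma called 0% of all genes in each. Of all genes, 759 and 511 had an unadjusted p under 0.05 with limma, edgeR called 0 in each, and DESeq2 called 3 and 0. For Edn2 the TNF effect was 1.33 ± 0.551 higher on day 35 than on day 2 (limma, unadjusted p 0.0178, FDR 0.9998), the 1 member with an unadjusted p under 0.05. The controls differ between the days, since day 2 PBS retinas include fellow eyes of IL1A and IL1A+TNF eyes and later ones do not. With the mouse as a fixed factor, the day 2 TNF difference of Edn2 was 0.35 ± 0.153 in place of -0.07 ± 0.203. The part of the controls in the 1.33 was not tested.

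**Figure D4:**
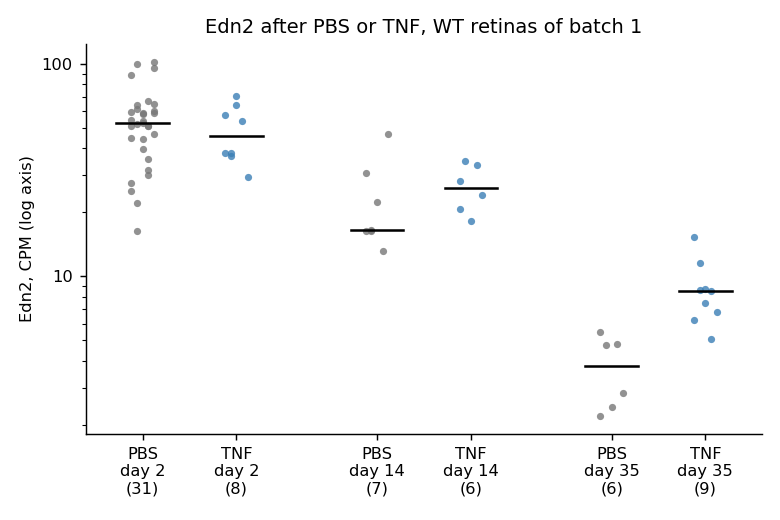
Edn2 in CPM on a log axis in PBS and TNF retinas of batch 1 on days 2, 14 and 35, 1 point per retina, numbers of retinas in brackets and medians as black lines. The PBS medians step down from 52.8 over 16.6 to 3.81 CPM, and on day 35 all but 1 of the 9 TNF retinas stand above the highest PBS retina (5.50 CPM).

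In batch 2 the IL1A+TNF comparison was run again in other WT mice on the same day. Edn2 was at 27.6, 33.2, 45.3, 74.2 and 98.8 CPM in the 5 PBS retinas and ran from 101 over 162 to 192 CPM in the 6 IL1A+TNF retinas, without overlap. It was 3.12-fold higher (1.64 ± 0.369, FDR 0.00335) and was the 1 member called of 6, where 20.9% of all genes were called. Ednrb was at 13.2, 16.9, 20.3, 21.1 and 24.8 CPM after PBS and at 23.2, 29.3, 34.4, 43.3, 104 and 126 CPM after IL1A+TNF. The retina at 104 CPM held 3217 CPM of lens genes and the lowest sum of 7 RGC genes of its group, 297 CPM (next 429). Ednrb was higher in the IL1A+TNF eye of 5 of 5 mice, with a difference of 1.36 ± 0.661 (FDR 0.151). It was called with the mouse as a fixed factor (1.19 ± 0.204, FDR 0.00417) and by DESeq2 (1.504 ± 0.545, FDR 0.0265). Edn1 (0.38 ± 0.159, FDR 0.0921) and Edn3 (-2.53 ± 0.971, FDR 0.0690) had the signs they had in batch 1 without passing the test. Edn3 was at 8.88, 11.6, 13.2, 17.3 and 45.2 CPM after PBS and from 0.231 over 2.77 to 19.1 CPM after IL1A+TNF, while the pigment-cell sum went from a median of 566 to one of 305 CPM. Ednra (-0.20 ± 0.262, FDR 0.606) and Ece1 (0.090 ± 0.0820, FDR 0.445) overlapped between the groups. Batch 1 and batch 2 PBS retinas differed in level for several members, Edn3 with medians of 3.10 and 13.2 CPM and Ece1 with 58.8 and 67.2 CPM, so batches were compared only within a fit that held a batch term.

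Sarm1-/- retinas were used to ask whether the members respond to IL1A+TNF without SARM1, an NADase that carries out axon degeneration. All 6 members were called between IL1A+TNF and PBS in Sarm1-/- mice, 3 higher and 3 lower, where 43.5% of all genes were called. Edn2 ran from 15.6 over 53.7 to 92.5 CPM after PBS and from 98.4 over 137 to 155 CPM after IL1A+TNF, without overlap. Edn2 (1.46 ± 0.305, FDR 6.52e-05) and Edn1 (0.41 ± 0.155, FDR 0.0276) were higher in the treated eye of 6 of 6 mice. Edn1 ran from 3.03 over 3.75 to 4.17 CPM after PBS and from 4.08 over 4.35 to 7.30 CPM after IL1A+TNF. Its call held in 7 of 12 fits that each left out 1 retina (FDR at most 0.162), and it was lost with no filter on low counts (FDR 0.0588) and without the lens-rich retinas (FDR 0.0897). Edn3 ran from 1.74 over 11.1 to 77.1 CPM after PBS and from 0.109 over 1.02 to 10.9 CPM after IL1A+TNF. It was lower (-3.06 ± 0.868, FDR 0.00277), in 5 of 6 mice, while the pigment-cell sum went from a median of 446 to one of 112 CPM, and with that score as a covariate its difference was -0.72 ± 0.559 (FDR 0.322).

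The receptors moved in opposite directions in Sarm1-/- retinas. Ednrb ran from 18.97 over 20.1 to 32.0 CPM after PBS and stood at 14.5, 27.1, 39.1, 194, 276 and 385 CPM after IL1A+TNF. Its difference was 1.92 ± 0.427 (FDR 1.67e-04), and it was higher in the treated eye of 4 of 6 mice. Ednra ran from 3.78 over 3.96 to 6.00 CPM after PBS and stood at 0.972, 1.63, 2.40, 2.94, 3.40 and 3.95 CPM after IL1A+TNF, 5 of 6 below the lowest PBS retina and lower in the treated eye of 6 of 6 mice. Its difference was -0.85 ± 0.219 (FDR 0.00103). Of the 9 mural cell markers, 6 were called lower in the same comparison (list median -0.96) and none was at 0 throughout a group. Their sum ran from 109.3 over 142 to 384 CPM after PBS and from 82.4 over 90.03 to 137 CPM after IL1A+TNF, and their part in the Ednra value was not tested. Ece1 ran from 64.9 over 69.7 to 72.1 CPM after PBS and from 48.5 over 62.7 to 70.6 CPM after IL1A+TNF (-0.17 ± 0.0572, FDR 0.0126), and it was lower in the treated eye of 6 of 6 mice. With the pigment-cell score as a covariate the differences were -0.46 ± 0.195 for Ednra (FDR 0.0518) and -0.12 ± 0.0593 for Ece1 (FDR 0.107).

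The Ednrb, Ednra and Ece1 values rest in large part on the 3 females with the high erythrocyte sums. Ednrb was at 194 to 385 CPM in them and at 14.5 to 39.1 CPM in the 3 males. Ednra was at 0.972 to 2.40 CPM in the females and at 2.94 to 3.95 CPM in the males, and Ece1 at 48.5 to 63.3 CPM and at 62.0 to 70.6 CPM. The sum of 7 RGC genes was 79.7, 97.2 and 260 CPM in these females and 487 to 588 CPM in the males, against 571 to 630 CPM in the Sarm1-/- PBS retinas. In this group sex and the high erythrocyte sums cannot be told apart. Without these 3 retinas, chosen after seeing the data, 0 of 6 members were called, and 599 of all genes against 8768 with them. That fit also held only 3 treated Sarm1-/- retinas in place of 6. Ednrb then differed by 0.36 ± 0.425 (FDR 0.805), Ednra by -0.32 ± 0.236 (FDR 0.621), Ece1 by -0.038 ± 0.0624 (FDR 0.875) and Edn1 by 0.18 ± 0.175 (FDR 0.739). Edn2 was at 1.15 ± 0.371 (FDR 0.0789) and Edn3 at -2.64 ± 1.20 (FDR 0.299). Both kept most of their size with these retinas, 1.46 and -3.06. With the mouse as a fixed factor, in a fit of the Sarm1-/- retinas alone, limma called 0 of all genes in this comparison. The differences were then 1.41 ± 0.387 for Edn2, 0.42 ± 0.142 for Edn1, -3.16 ± 0.980 for Edn3, 2.28 ± 0.633 for Ednrb, -0.83 ± 0.301 for Ednra and -0.18 ± 0.0772 for Ece1, with FDRs from 0.135 to 0.174.

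**Figure D5:**
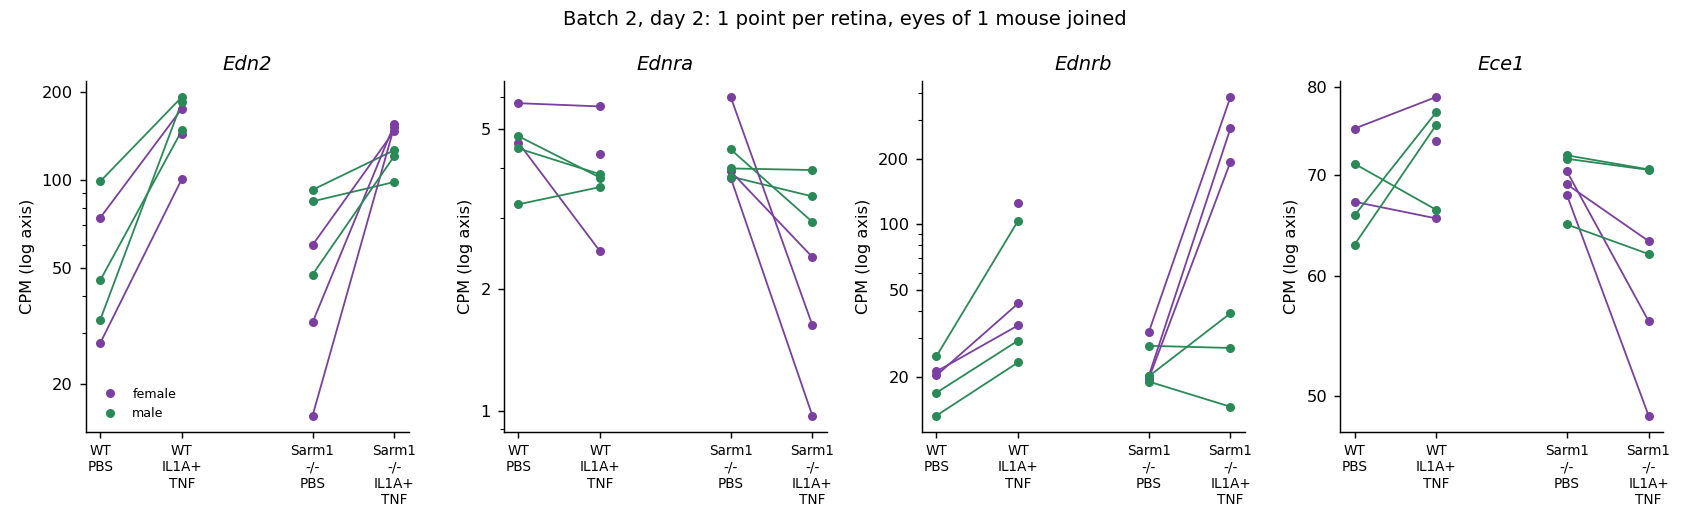
Edn2, Ednra, Ednrb and Ece1 in batch 2 on day 2, in CPM on log axes, 1 point per retina, with both eyes of a mouse joined and sex by color (purple for female, green for male). In Sarm1-/- mice the 3 females end at 194 to 385 CPM of Ednrb and 0.972 to 2.40 CPM of Ednra after IL1A+TNF, and the 3 males at 14.5 to 39.1 and 2.94 to 3.95 CPM.

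Genotypes were then compared within a treatment, with the WT retinas of both batches on day 2 and a batch term in the fit. In PBS retinas 0 of 6 members were called with limma, edgeR or DESeq2, where limma called 8 of all genes (0.0397%), edgeR 7 and DESeq2 8. With limma 0 of 6 had an unadjusted p under 0.05, where 984 of all genes had one. Edn3 had the largest difference in size with limma, -0.82 ± 0.601, and was at 0.12 with edgeR, 0.14 ± 0.767 with DESeq2 and 0.32 ± 0.472 with the pigment-cell score. In IL1A+TNF retinas, Ednra (-0.83 ± 0.212, FDR 0.00610) and Ece1 (-0.23 ± 0.0525, FDR 0.00274) were lower in Sarm1-/- mice, 2 of 6 where 14.8% of all genes were called. Ednrb differed by 0.76 ± 0.378 (unadjusted p 0.0469, FDR 0.174), was called without Sarm1-/- IL1A+TNF replicate 1 (1.17, FDR 0.0137), and was at -0.77 ± 0.410 (FDR 0.266) without the 3 Sarm1-/- females. Within batch 2, Ednra ran from 2.49 over 3.82 to 5.68 CPM in WT and Ece1 from 65.5 over 74.6 to 78.8 CPM, so that both genes overlapped between genotypes. Without the 3 Sarm1-/- females the differences were -0.28 ± 0.232 for Ednra (FDR 0.517) and -0.095 ± 0.0602 for Ece1 (FDR 0.368), and with batch 2 alone they were -0.72 ± 0.259 (FDR 0.196) and -0.23 ± 0.0755 (FDR 0.167). Edn2 differed by -0.13 ± 0.277 (FDR 0.816, 95% interval -0.68 to 0.42), and by -0.44 ± 0.356 (FDR 0.517) without the 3 females.

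The difference between the genotypes in their response was tested directly. The genotype by treatment interaction was called for Ednra (-0.88 ± 0.251, FDR 0.0201) and Ece1 (-0.26 ± 0.0653, FDR 0.0116), 2 of 6 where 8.75% of all genes were called. It was 0.02 ± 0.348 for Edn2 (FDR 0.985, 95% interval -0.68 to 0.71) and 0.53 ± 0.499 for Ednrb (FDR 0.567). Without the 3 females of the Sarm1-/- IL1A+TNF group, the interaction was -0.33 ± 0.263 for Ednra (FDR 0.528), -0.13 ± 0.0687 for Ece1 (FDR 0.328) and -0.29 ± 0.409 for Edn2 (FDR 0.751), and that of Ednrb turned to -1.03 ± 0.474 (FDR 0.244). Of all genes, 198 were then called against 1763 with them. With batch 2 alone it was -0.65 ± 0.376 and -0.26 ± 0.114, both with an FDR of 0.814. Leaving out Sarm1-/- IL1A+TNF replicate 4 or replicate 5, females both, also ended both calls, with FDRs of 0.198 and 0.182 for Ednra and 0.163 and 0.0883 for Ece1. The Ednra call was also lost without Sarm1-/- PBS replicate 4 (FDR 0.0508), with edgeR (FDR 0.0914) and with DESeq2 (FDR 0.0551). Of the 9 mural cell markers, 4 had a called negative interaction (list median -0.81), and their part in the Ednra interaction was not tested.

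The genes around the members were followed in 4 lists, whose counts stand against the 9852 of 19548 genes (50.4%) called after IL1A+TNF in batch 1, 4874 of them higher and 4978 lower. After IL1A+TNF in batch 1, 8 of 9 genes of the photoreceptor stress response known to involve Edn2 were higher and 0 lower (list median 1.31, all genes -0.02). Among them were Bcl3, a regulator of NF-kB (2.08 ± 0.203, FDR 4.82e-13), Gfap, the intermediate filament of reactive glia (1.44 ± 0.155, FDR 1.15e-11), and Fgf2, a growth factor that protects photoreceptors (1.31 ± 0.148, FDR 4.31e-11). The list had 7 of 9 higher after IL1A (median 0.61, 21.4% of all genes called), 0 called after TNF (0.655%) and 7 of 9 higher in WT mice of batch 2 (median 1.42, 20.9%). In PBS retinas 8 of 9 were lower than on day 2 on day 14 (median -1.36, 18%) and again on day 35 (median -2.42, 32.9%). With group means removed, the list score and Edn2 had an r of 0.75 over 58 retinas of batch 1 and 0.83 over 23 of batch 2. Markers of cones, 6 of 6, were lower after IL1A+TNF in batch 1.

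Of 21 genes downstream of the receptors, 11 rose and 5 fell in batch 1 with IL1A+TNF (median 0.15), 16 of 21 beside the 50.4% of all genes. Plcb2, a phospholipase C of blood cells (1.82 ± 0.125, FDR 4.32e-18), Arrb2, an arrestin (0.66 ± 0.0490, FDR 5.94e-17), and Gna13, a G protein alpha subunit (0.48 ± 0.0408, FDR 3.99e-15), had the smallest FDRs. In the same comparison all 7 markers of neutrophils and monocytes were higher (median 2.73), and their part in the Plcb2 value was not tested. After IL1A, where 21.4% of all genes were called, 9 were higher and 1 lower, and after TNF (0.655%) Plcb2 alone was called (0.73 ± 0.163, FDR 0.0117).

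Of 5 genes of peptide processing and turnover besides Ece1, 4 were tested and Kel was too low. Ecel1, a relative of the converting enzyme that injured neurons turn on, was higher after IL1A+TNF (1.93 ± 0.143, FDR 4.23e-17), after IL1A (0.79 ± 0.173, FDR 4.27e-04) and in WT mice of batch 2 (1.66 ± 0.428, FDR 0.00901). Ece2, the second converting enzyme, was lower after IL1A+TNF (-0.25 ± 0.0412, FDR 6.63e-07) and after IL1A (-0.14 ± 0.0429, FDR 0.00971), opposite to Ece1. In WT mice of batch 2 the Ece2 difference did not pass the test (-0.45 ± 0.261, FDR 0.235). Of 15 genes of other vasoactive systems, 5 rose and 2 fell with IL1A+TNF (median 0.11), a share of 7 of 15 close to that of all genes. Ptgs1, a cyclooxygenase (2.31 ± 0.140, FDR 5.73e-20), and Nppb, a natriuretic peptide (1.12 ± 0.216, FDR 1.39e-05), were higher, and Nos1, the neuronal nitric oxide synthase, was lower (-0.25 ± 0.0542, FDR 8.62e-05). In WT mice of batch 2, Ptgs1 was called (2.46 ± 0.484, FDR 0.00123). Nppb (1.025 ± 0.429, FDR 0.0942) and Nos1 (-0.35 ± 0.233, FDR 0.292) kept their signs there without passing the test.

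Among 15124 genes with a mean of at least 1 CPM, those whose levels followed a member most closely were sought over the 58 day 2 retinas of batch 1 with treatment means removed, as a description over retinas that share controls and mice. The 23 retinas of batch 2 include the 3 Sarm1-/- females. Edn2 was followed by Gnb3, a transducin subunit of cones and bipolar cells (r = 0.91, and 0.92 over the 23 retinas of batch 2), Nudt6, which is read from the strand opposite Fgf2 (0.87 and 0.90), and Lrrc2 (0.87 and 0.89). The summed cone markers (-0.41 and -0.38) and rod markers (-0.60 and -0.57) went the other way from Edn2. Edn3 was followed by Myh11, a smooth muscle myosin (0.90 and 0.85), and by the pigment-cell genes Pmel (0.89 and 0.94) and Slc45a2 (0.88 and 0.92). Ednrb was followed by Nkain1 (0.88 and 0.97), Spata13 (0.84 and 0.82) and Gcnt2 (0.82 and 0.80). Ednra was followed by Igfbp5 (0.81 and 0.52), Cyth3 (0.80 and 0.85) and Papss2 (0.80 and 0.59). For Ece1 the batch 1 order did not carry over to batch 2, with Ptgfrn at 0.77 and 0.21, H6pd at 0.77 and -0.17 and Itgb1 at 0.76 and -0.36. Edn1, the least tied to any gene, had Rhod (0.63 and 0.41), Lrrc25 (0.62 and 0.30) and Wfdc17 (0.60 and 0.41).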

How the data were processed

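Whole mouse retinas were profiled by RNA-seq of polyadenylated RNA. Per the labels and methods, the authors used STAR 2.7.9a for alignment to mm10 and deposited the raw counts that featureCounts (Subread 2.0.1) gave per gene. The annotation release and strand setting are not given in the sources used here. Symbols, positions and exon lengths came from GENCODE M21 (GRCm38).

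Genes were filtered with edgeR 4.0.16 (filterByExpr, minimum count 10, minimum total 15), scaled by TMM and tested with limma 3.58.1 (voom, duplicateCorrelation on mouse, 2 rounds) in R 4.3.3. Terms were treatment and sex for batch 1, and group, sex and batch for the Sarm1-/- comparisons. edgeR's quasi-likelihood test and DESeq2 1.42.0 were alternatives, without the mouse block. The other alternatives were no filter, a mean of at least 1 CPM, median-of-ratios scaling, no sex term, a joint fit of batch 1, mouse as a fixed factor or no block, batch 2 alone and each retina of the treated and batch 2 groups left out in turn. Chosen after seeing the data were a pigment-cell covariate and the removal of lens-rich retinas (over 100 CPM of lens genes) or of 3 erythrocyte-rich ones. Pairing comes from the labels, since both eyes of a mouse share its number. The deviations of the 2 eyes from their group means had a median r of 0.08 (-0.27 to 0.35), over 0.1 in 20 of 45 mice.

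The members, lists and tests were chosen with earlier results of these data known. Named genes are the members, the 3 genes of each pathway list with the smallest FDR after IL1A+TNF, where called, and the 3 genes with the highest correlation to each member. Scripts were tested on simulated counts. The 95% intervals are for the fitted mean difference, given the variation between these retinas, and do not span the values of single retinas.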

Additional observations from a re-analysis of the deposited data

Results flagged for a closer look

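In 66 groups of 4 to 10 retinas, 12 held a highest retina that stood apart from the rest by Dixon's test, and no lowest retina did. For normally spread values, chance sets apart a retina at either end in about 1 in 20 groups. That rate does not strictly apply here, since the CPM were not on a log scale and the groups reuse the same retinas for each member. Edn3 gave 6 of the 12. Its highest retina was at 12.8 CPM after TNF on day 2 (next 3.59), 16.2 after IL1A (next 7.41), 45.2 in WT PBS (next 17.3) and 19.1 in WT IL1A+TNF (next 6.12) of batch 2, 77.1 in Sarm1-/- PBS (next 19.7) and 10.9 in Sarm1-/- IL1A+TNF (next 1.09). The retinas at 12.8, 45.2, 19.1, 77.1 and 10.9 CPM also held the highest pigment-cell sums of their groups, 758, 1176, 695, 943 and 321 CPM. The IL1A retina at 16.2 CPM held 488 CPM, where the highest sum of its group was 498 CPM. The retinas at 12.8 and 77.1 CPM of Edn3 also held the outlying Ednra levels, 5.22 CPM (next 3.32) and 6.00 CPM (next 4.45). For Ednrb, single retinas stood at 218 CPM after IL1A+TNF in batch 1 (next 114), 19.1 CPM after TNF on day 14 (next 11.97) and 12.8 CPM after PBS on day 35 (next 10.3). The retina at 218 CPM had the lowest RGC sum of its group, 422 CPM. For Edn2, an IL1A retina stood at 170 CPM (next 122).

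The response to IL1A+TNF differed between Sarm1-/- and WT mice for Ednra (-0.88 on the log2 scale) and Ece1 (-0.26) by limma's interaction test, and neither passed it without the 3 Sarm1-/- females with high erythrocyte sums.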

How the results depend on the processing

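Over the members and comparisons, 1556 of the alternative values kept their direction and their side of the threshold, 54 lost a call, 15 gained one, 19 uncalled values moved and 0 called values changed sign. Counts of called members that moved by more than 1.5 times were these. After IL1A, 4 became 2 with the replicate block as a fixed factor. After TNF on day 2, 0 became 1 with the pigment-cell score. For IL1A+TNF against IL1A, 1 became 0 with no filter, with the pigment-cell score and without lens-rich retinas. For the IL1A by TNF interaction, 0 became 1 with edgeR and with DESeq2. For PBS on day 14 against day 2, 1 became 2 with a mean of at least 1 CPM, edgeR, DESeq2, no replicate block, the pigment-cell score and without lens-rich retinas, each adding Ednra. On day 35, 2 became 1 with the pigment-cell score. In Sarm1-/- mice, IL1A+TNF against PBS went from 6 to 3 with the pigment-cell score and to 0 with the replicate block as a fixed factor or without the 3 females. Between genotypes after IL1A+TNF, 2 became 0 with batch 2 alone or without the 3 females, and leaving out single replicates gave 0 to 3 (0 without Sarm1-/- IL1A+TNF replicate 4, 1 without replicate 5, and 3, with Ednrb, without replicate 1). The genotype by treatment interaction went from 2 to 1 with edgeR, DESeq2 and without lens-rich retinas, to 0 with batch 2 alone or without the 3 females, and to 0 to 2 with single replicates left out. In WT mice of batch 2, 1 became 2 with DESeq2 and with the replicate block as a fixed factor, and single replicates left out gave 1 to 2 (without IL1A+TNF replicate 5, Edn3 had an FDR of 0.0433). Smaller moves were from 5 to 4 after IL1A+TNF with the fixed block (without Edn1) or without lens-rich retinas (without Edn3), from 4 to 3 after IL1A without lens-rich retinas (without Ednra), from 2 to 3 for PBS on day 35 with DESeq2 (Edn3), and in Sarm1-/- mice from 6 to 5 with no filter (without Edn1) or batch 2 alone (without Ece1), to 4 without lens-rich retinas (without Edn1 and Ece1) and to 4 to 6 with single retinas left out. After IL1A+TNF the pigment-cell score kept the count at 5 with Ednra in the place of Edn3. The fixed block keeps only the groups compared and drops mice with a single eye. In Sarm1-/- mice, where all 6 gave both eyes, it held the Sarm1-/- retinas alone in place of the 81 retinas of the main fit. The cause of these moves was not tested further.

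Over all genes, limma, edgeR and DESeq2 called 128, 242 and 268 genes after TNF on day 2, 703, 788 and 1104 for the IL1A by TNF interaction, 2988, 1195 and 1600 between genotypes after IL1A+TNF, and 1763, 181 and 443 for the genotype by treatment interaction. Ednra and Edn1 lie near 1 to 7 CPM. After IL1A+TNF in batch 1 the SE was 0.136 for Ednra and 0.117 for Edn1, below those of Edn2 (0.179) and Ednrb (0.223). It was largest for Edn3 (0.572), where small differences were least detectable.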
